A study of Mus musculus with 12 samples.

Results

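The 8 genes described here belong to the CXC chemokine system of the mouse. They are the ligand genes Cxcl1, Cxcl2, Cxcl3, Cxcl9, Cxcl10, Cxcl11 and Cxcl16 and the receptor gene Cxcr4. They were chosen by symbol and found through their Ensembl identifiers, 8 of the 54232 genes in a table of read counts. RNA was sequenced from RAW 264.7 cells, a mouse macrophage line grown in culture, in 12 libraries that form 6 groups of 2. The groups are Ing4 knockout, Socs1 knockout and wild-type cells treated with lipopolysaccharide (LPS, a bacterial cell wall component) at 100 ng/ml for 3 h, and untreated cells of the same genotypes. The series presents both knockouts as E3 ligase knockouts. The sources used here do not give how they were made or whether each line is 1 clone. Whether the paired libraries of each group are separate cultures is not stated either, so p-values cover only the spread between libraries, which may be technical.

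CXC chemokines are small proteins that guide leukocytes by binding receptors coupled to G proteins. Cxcl1, Cxcl2 and Cxcl3 attract neutrophils through Cxcr2, while Cxcl9, Cxcl10 and Cxcl11 are induced by interferons and attract activated T cells through Cxcr3. Cxcl16 is made as a membrane-anchored protein that proteases can release, and it binds Cxcr6. Cxcr4 is the receptor for Cxcl12 and helps to keep leukocytes in the bone marrow. In macrophages LPS signals through Tlr4 to the transcription factor NF-kB and to the production of interferon beta, and both routes are known to act on chemokine genes.

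The libraries held 17250815 to 24377950 counts each, and 16749 to 17583 genes had at least 1 count. Of 9 macrophage markers 9 passed the filter on low counts, with summed levels of 11770 to 22143 CPM (counts scaled to the effective library size), while 7 of 10 markers of other lineages, among them Cd3e and Epcam, had 0 counts in all libraries and the sum of the 10 was 0.741 to 3.27 CPM. One library, the first of the LPS-treated Socs1 knockout pair, stood apart and is called the outlying library here. On the first principal component it lay at -16.2, against 62.4 to 74.4 for the other LPS-treated libraries and -66.1 to -41.7 for the untreated ones. Most fitted values of the 8 genes in LPS-treated Socs1 knockout cells are given with and without it. Bounds, ratios of summed counts, medians and mean levels per kilobase there include it. The targeted genes were counted in every library. Ing4 had between 2 and 29 counts in the 12 libraries and was not lower in those labelled Ing4 knockout, and Socs1 after LPS had 67 and 127 counts in Socs1 knockout libraries, 185 and 148 in Ing4 knockout libraries and 169 and 179 in wild-type libraries. As CPM these were 2.73 and 7.14 in Socs1 knockout libraries, below the 8.19 to 9.08 of the other 4, and the log2 difference from wild type was -0.88 ± 0.47, not called, or -0.34 ± 0.41 without the outlying library. Untreated Socs1, at 4 to 12 counts, overlapped between genotypes. The counts are per gene and do not show which exons the reads fall in, so they do not check the knockout labels.

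With LPS Cxcl2 and Cxcl10 were called higher in all 3 genotypes, and Cxcl11 and Cxcl16 in Ing4 knockout and wild-type cells. Cxcr4 was called lower in Ing4 knockout cells. Where Cxcl11, Cxcl16 and Cxcr4 were not called their log2 change had the same sign. No difference in their response between a knockout and wild type was called in the reported fit. Cxcl1, Cxcl3 and Cxcl9 had reads in every treated library and almost none without LPS. 7 of the 8 genes had enough counts to be tested, Cxcl9 being the exception. After LPS 5 of 7 were called in Ing4 knockout cells, 4 higher and 1 lower, where 8.02% of all tested genes were called (4.73% higher and 3.29% lower). In Socs1 knockout cells 2 of 7 were called, both higher, against 1.98% of all genes (1.57% higher and 0.407% lower). In wild-type cells 4 of 7 were called, all higher, against 2.89% of all genes (1.89% higher and 1% lower). A gene was called at an adjusted p of 0.05 or less in edgeR's quasi-likelihood test over 12771 genes. Cxcl1, Cxcl3 and Cxcl11 passed the filter on low counts only through LPS-treated libraries, where they are high, so counts and medians over the 7 are descriptions and support nothing. With Cxcl1 and Cxcl3, which had no untreated counts, set to their lower bounds, the median log2 change of the 7 was 4.28 in Ing4 knockout, 2.44 in Socs1 knockout and 3.50 in wild-type cells. With their fitted values it was 7.80, 6.03 and 7.02. Over all tested genes it was -0.0004, 0.0066 and 0.0084.

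How many genes were called depended on the libraries and terms fitted. Without the outlying library 7 of 7, 5 of 7 and 6 of 7 genes were called in Ing4 knockout, Socs1 knockout and wild-type cells, where 20.4%, 15.8% and 14.5% of all tested genes were called. With the replicate number as a block within each genotype 7, 3 and 6 were called, against 27.2%, 6.02% and 14.2% of all genes. In wild-type cells no CXC gene kept its call without the first or without the second untreated wild-type library, which leaves a single library in that group. Calls over all genes became far fewer in these fits too, so the loss was not particular to the CXC genes. With all libraries DESeq2 called 5 CXC genes in wild-type cells, where it called 1416 of 12246 genes. Over all genes 241 rose and 128 fell in wild-type cells, and with upper-quartile scaling 220 rose and 214 fell. The same scaling turned 604 higher and 420 lower into 501 and 636 in Ing4 knockout cells, and 201 and 52 into 165 and 91 in Socs1 knockout cells. It left every call of a CXC gene as it was.

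**Figure D1:**
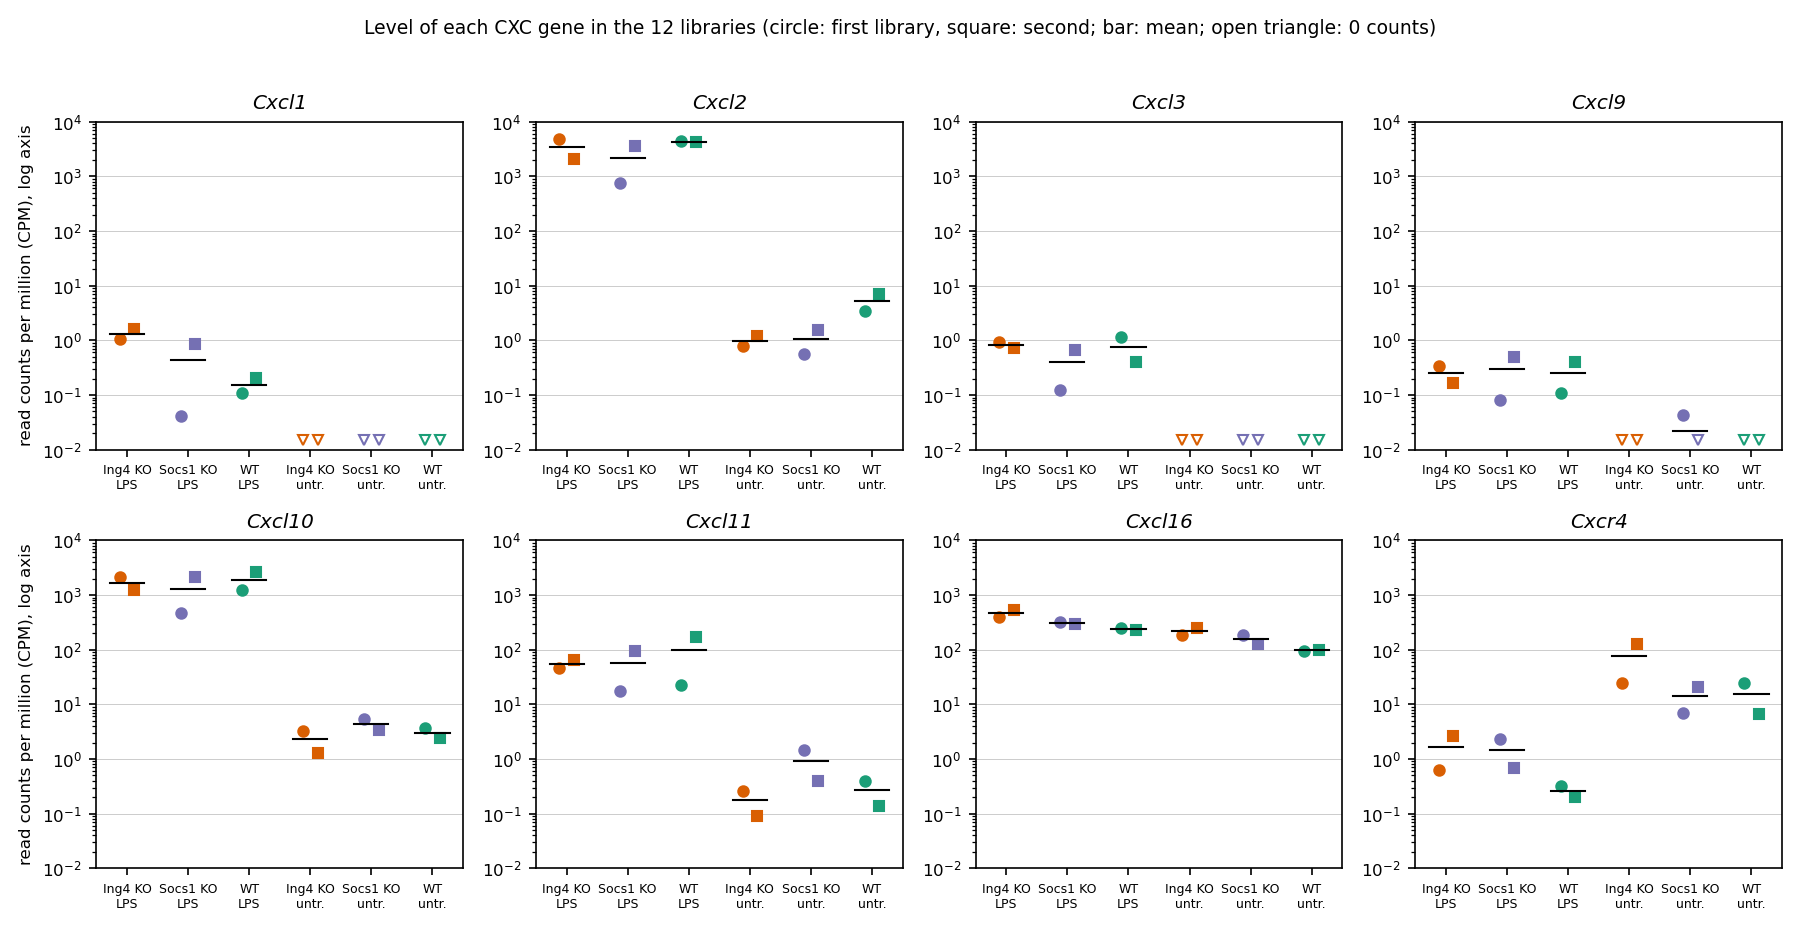
CPM of each CXC gene on a log axis in the 12 libraries, by genotype and treatment; points are libraries, bars are group means and open triangles mark 0 counts. Cxcl16 is above 96 CPM in every library, and Cxcr4 is lower in every LPS-treated library than in any untreated one.

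Cxcl1, Cxcl2 and Cxcl3, the neutrophil attractants, lie on chromosome 5 of the mouse build GRCm38 on the plus strand, with 4 exons each in their principal transcripts. Cxcl1 (ENSMUSG00000029380) is at chr5:90891241-90893115, Cxcl2 (ENSMUSG00000058427) at chr5:90903871-90905938 and Cxcl3 (ENSMUSG00000029379) at chr5:90786103-90789600. They belong to a cluster of 7 ligand genes over 146579 bases, in order Cxcl5, Ppbp, Pf4, Cxcl3, Cxcl15, Cxcl1 and Cxcl2. In these cells Cxcl5 and Cxcl15 had 0 counts in all 12 libraries and Ppbp at most 3. The stretches of 95 bases that end at base -31 before the RefSeq start sites of the trio are shown because each holds the same 11 bases, in capitals, the longest string the stretches share. These bases contain the NF-kB motif.

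Cxcl1: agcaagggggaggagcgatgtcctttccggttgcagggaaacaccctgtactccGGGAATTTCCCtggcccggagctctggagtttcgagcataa
Cxcl2: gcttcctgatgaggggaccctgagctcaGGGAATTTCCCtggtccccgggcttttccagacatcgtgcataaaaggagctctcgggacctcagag
Cxcl3: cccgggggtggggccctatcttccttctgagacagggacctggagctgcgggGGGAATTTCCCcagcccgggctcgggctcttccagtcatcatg

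The sequences are from RefSeq (GRCm38.p6, plus strand), at chr5:90891120-90891214, chr5:90903774-90903868 and chr5:90785976-90786070. The string GGGAATTTCCC begins at -71 in Cxcl1, -97 in Cxcl2 and -73 in Cxcl3. It occurs in 12 of 32851 promoter windows of 250 bases (0.0365%). That count includes the 3 genes from which the string was taken, so the share is only a description. The NF-kB motif searched on both strands, GGGA and TTCC with any 2 bases between them, occurs in 1.21% of the windows. Each of the 3 genes has a match on either strand, and these overlap. A match is a string of letters and not evidence of binding.

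Cxcl2, also known as MIP-2, had the highest level per kilobase of the 8 genes in every LPS-treated library. It stood at 4857 and 2047 CPM in LPS-treated Ing4 knockout cells, against 0.785 and 1.20 CPM in untreated Ing4 knockout cells. Socs1 knockout cells had 758 and 3666 CPM after LPS, against 0.564 and 1.54 CPM untreated. Wild-type cells had 4402 and 4244 CPM after LPS, against 3.51 and 7.15 CPM untreated. Treated and untreated libraries were separated in each genotype, and the lowest treated library was the first Socs1 knockout one. The log2 change was 11.76 ± 1.15 (SE; adjusted p = 0.00166) in Ing4 knockout cells. It was 11.05 ± 1.13 (adjusted p = 0.00269) in Socs1 knockout cells, and 11.78 ± 0.80, also called, without the outlying library. The wild-type change was 9.66 ± 1.05 (adjusted p = 0.00376). The wild-type call was lost without the first untreated wild-type library (log2 change 9.24) and without the second (10.24). The Socs1 knockout call was lost when only the 4 Socs1 knockout libraries were fitted, at a log2 change of 11.01. In bulk RNA more cells with a transcript and more transcript per cell cannot be told apart.

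Cxcl1 and Cxcl3 had few reads. Cxcl1, known as KC, had 22 and 29 counts in LPS-treated Ing4 knockout libraries, 1 and 15 in Socs1 knockout libraries and 2 and 4 in wild-type libraries, and 0 counts in all 6 untreated libraries. Against a floor of 3 counts over the untreated group its CPM was at least 19.4-fold higher after LPS in Ing4 knockout, 5.44-fold in Socs1 knockout and 2.34-fold in wild-type cells. Cxcl3 had 20 and 13 counts in LPS-treated Ing4 knockout libraries, 3 and 12 in Socs1 knockout libraries and 21 and 8 in wild-type libraries, and again 0 counts in all untreated ones. Its bounds were 12.6-fold, 5.10-fold and 11.3-fold in the same order of genotypes. Every treated library thus had reads of both genes and no untreated library had any.

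Neither gene was called with all 12 libraries, the adjusted p being 0.0639, 0.237 and 0.301 for Cxcl1 and 0.0543, 0.183 and 0.0877 for Cxcl3 in Ing4 knockout, Socs1 knockout and wild-type cells. Since both passed the filter only through treated libraries, a call in another fit is a description. Their fitted log2 changes depend on the prior count and are given only to name each fit. In Ing4 knockout cells both were called with the block within genotype (Cxcl1 7.80 ± 1.04, Cxcl3 7.15 ± 1.13), without the outlying library (7.78 and 7.13) and without the other LPS-treated Socs1 knockout library (7.82 and 7.17). In Socs1 knockout cells both were called without the outlying library (7.14 and 6.82). In wild-type cells Cxcl3 was called with the block (7.03 ± 1.17) and without either LPS-treated Socs1 knockout library (7.0 and 7.04). Of the 75-base windows in Cxcl2 transcripts 4.57% also occur in Cxcl3, which makes 2.78% of the windows of Cxcl3. The sources used here do not say how such reads were counted, so a few counts of Cxcl3 could come from Cxcl2.

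Cxcl9, Cxcl10 and Cxcl11, the ligands of Cxcr3, lie next to each other on the minus strand over 44139 bases of chromosome 5. Cxcl9 (ENSMUSG00000029417) is at chr5:92321347-92328079, Cxcl10 (ENSMUSG00000034855) at chr5:92346638-92348889 and Cxcl11 (ENSMUSG00000060183) at chr5:92359544-92365485. The annotation classes Cxcl11 as a polymorphic pseudogene and the other 2 as protein-coding. A stretch of 100 bases from base -230 before the RefSeq start of Cxcl10 is shown because it holds matches, in capitals, to the interferon-stimulated response element and to the NF-kB motif. The element, ISRE, was searched on both strands as GAAA and GAAA with any 2 bases between them.

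Cxcl10: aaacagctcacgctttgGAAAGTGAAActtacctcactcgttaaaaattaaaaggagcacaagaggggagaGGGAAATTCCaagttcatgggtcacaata

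This sequence is from RefSeq (GRCm38.p6, minus strand, chr5:92349020-92349119), and the 2 matches begin at -213 and -159. ISRE matches occur in 2.98% of the 32851 promoter windows. The window of Cxcl9 held no match to ISRE, to NF-kB or to the interferon gamma element (GAS, TTCNNNGAA on both strands, found in 7.02% of windows), which says only that those letters are not in its 250 bases.

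Cxcl10, known as IP-10, had the next highest level per kilobase in every LPS-treated library. It stood at 2116 and 1214 CPM in LPS-treated Ing4 knockout cells, against 3.27 and 1.29 CPM in untreated ones. Socs1 knockout cells had 478 and 2105 CPM after LPS, against 5.29 and 3.34 CPM untreated. Wild-type cells had 1225 and 2598 CPM after LPS, against 3.64 and 2.40 CPM untreated. Treatments did not overlap in any genotype, and each knockout overlapped wild type within each treatment. The log2 change was 9.50 ± 1.02 (adjusted p = 0.00257) in Ing4 knockout cells. It was 8.22 ± 0.96 (adjusted p = 0.00479) in Socs1 knockout cells, and 8.93 ± 0.71, also called, without the outlying library. The wild-type change was 9.30 ± 1.01 (adjusted p = 0.00376). The wild-type call was lost without the first or the second untreated wild-type library (9.64 and 9.01), and the Socs1 knockout call without the first or the second untreated Socs1 knockout library (8.59 and 7.93) and when only the Socs1 knockout libraries were fitted (8.20). Exons of Art3, on the opposite strand, cover 5.91% of the exon bases of Cxcl10, but Art3 reached at most 25 counts in any library.

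Cxcl11, known as I-TAC, was higher after LPS in each genotype and was called in Ing4 knockout and wild-type cells. It stood at 46.4 and 64.8 CPM in LPS-treated Ing4 knockout cells, against 0.262 and 0.0922 CPM in untreated ones. Socs1 knockout cells had 17.5 and 95 CPM after LPS, against 1.47 and 0.398 CPM untreated. Wild-type cells had 22.4 and 173 CPM after LPS, against 0.395 and 0.136 CPM untreated. The treatments did not overlap, and in wild-type cells the treated libraries differed from each other more than in any other gene of the 8. The gene passed the filter on low counts only through LPS-treated libraries, so its calls in this and other fits are descriptions. The log2 change was 8.23 ± 1.5 (adjusted p = 0.0206) in Ing4 knockout and 8.48 ± 1.47 (adjusted p = 0.0283) in wild-type cells. For Socs1 knockout cells it was 5.87 ± 1.26 (adjusted p = 0.0600). Without the outlying library the Socs1 knockout value was 6.63 ± 1.15 and called. It was also called, at 5.88 each, without the first or the second LPS-treated wild-type library.

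In Ing4 knockout cells the call was lost without any one of the 4 Ing4 knockout libraries, the log2 change then being 9.15 or 7.70 without the first or second untreated one and 8.45 or 7.97 without the first or second treated one. In wild-type cells it was lost without the first or second untreated wild-type library (9.43 and 7.91), without the second treated one (6.36) and without any one Ing4 knockout library (8.48 to 8.49). The pseudogene Gm2673 lies on the opposite strand over 41.7% of the exon bases of Cxcl11 and had 0 counts in all libraries. The library kit keeps strand information, per the labels, but the sources used here do not give the strand setting of the counting.

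Cxcl9, known as MIG, was the least detected of the trio. It had 7 and 3 counts in LPS-treated Ing4 knockout libraries, 2 and 9 in Socs1 knockout libraries and 2 and 8 in wild-type libraries. Untreated libraries had 0 counts apart from 1 in the first Socs1 knockout library. Its CPM was at least 3.80-fold higher after LPS in Ing4 knockout and 3.90-fold in wild-type cells, against a floor of 3 counts. In Socs1 knockout cells the ratio to the 1 untreated count was 11.2 (exact 95% interval 1.63 to 483, counting error only), which is not on the scale of those bounds and shows no larger change. It did not pass the filter on low counts and has no test with it.

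**Figure D2:**
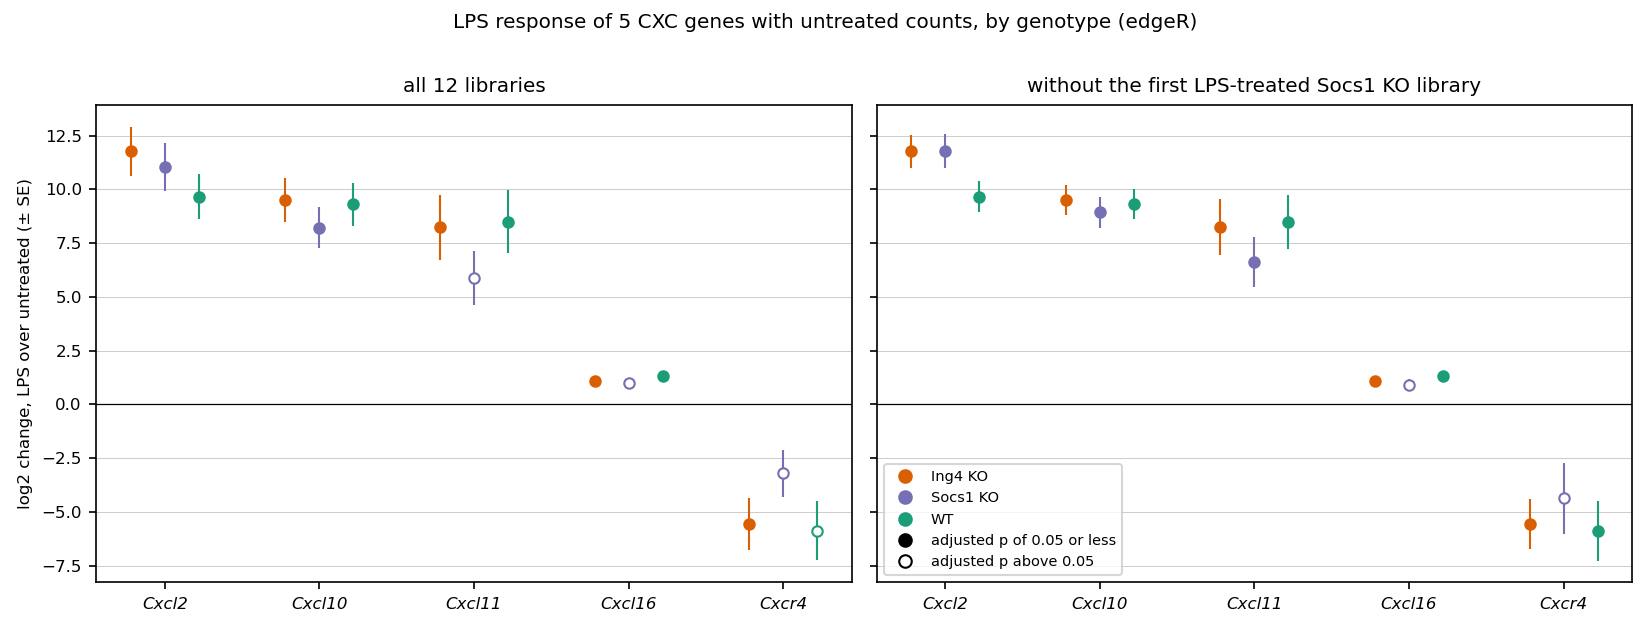
Log2 change with LPS over untreated (edgeR, ± SE) for the CXC genes that had untreated counts in each genotype, with all 12 libraries on the left and without the outlying library on the right; filled points are called. Cxcl2, Cxcl10 and Cxcl11 lie between 5.87 and 11.78, Cxcl16 near 1 and Cxcr4 below 0 in every genotype.

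Cxcl16 (ENSMUSG00000018920; minus strand, chr11:70453983-70459984, 5 exons) had the highest level per kilobase of the 8 genes before treatment. It stood at 393 and 539 CPM in LPS-treated Ing4 knockout cells, against 186 and 252 CPM in untreated ones. Socs1 knockout cells had 324 and 291 CPM after LPS, against 183 and 126 CPM untreated. Wild-type cells had 251 and 230 CPM after LPS, against 96.3 and 97.4 CPM untreated. Treated libraries were above untreated ones in each genotype, while untreated Ing4 knockout cells overlapped LPS-treated wild-type cells. The log2 change was 1.09 ± 0.24 (adjusted p = 0.0312) in Ing4 knockout and 1.31 ± 0.24 (adjusted p = 0.0297) in wild-type cells, both called. For Socs1 knockout cells it was 1.00 ± 0.24 (adjusted p = 0.0774). It was 1.02 ± 0.12 there, and called, with the block within genotype, and 0.92 ± 0.28, not called, without the outlying library.

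The wild-type call of Cxcl16 was lost without the first or second untreated wild-type library (1.30 each) and without the first or second treated one (1.25 and 1.37). The Ing4 knockout call was lost without any one wild-type or Ing4 knockout library, where the log2 change was 0.85 to 1.32, and when only the Ing4 knockout libraries were fitted (1.07 ± 0.27). Cxcl16 overlaps Zmynd15, a gene on the opposite strand, over 552 bases or 18.27% of its exon bases. Zmynd15 stood at 17.0 and 18.9 CPM in LPS-treated Ing4 knockout, 11.4 and 15.8 in Socs1 knockout and 9.35 and 8.06 in wild-type libraries, and at 7.94 and 13.6, 8.46 and 7.47, and 4.13 and 4.75 CPM in untreated libraries of the same genotypes. Its log2 change with LPS was 0.74 ± 0.29, 0.77 ± 0.29 and 0.97 ± 0.29 in those genotypes, none of them called. Reads in the shared bases could belong to either gene, and their part was not tested.

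Cxcr4 (ENSMUSG00000045382, minus strand, chr1:128588199-128592293, 2 exons), the receptor, was lower after LPS in each genotype and was called in Ing4 knockout cells. It stood at 0.618 and 2.66 CPM in LPS-treated Ing4 knockout cells, against 24.9 and 127 CPM in untreated ones. Socs1 knockout cells had 2.28 and 0.675 CPM after LPS, against 7.07 and 20.9 CPM untreated. Wild-type cells had 0.322 and 0.203 CPM after LPS, against 24.7 and 6.57 CPM untreated. All 6 treated libraries lay below all 6 untreated ones. The first untreated library had 0.196 times the CPM of the second in Ing4 knockout, 0.338 times in Socs1 knockout and 3.76 times in wild-type cells. The log2 change in Ing4 knockout cells was -5.55 ± 1.21 (adjusted p = 0.0335). For Socs1 knockout cells it was -3.20 ± 1.11 (adjusted p = 0.201), and -4.35 ± 1.66, not called, without the outlying library. The wild-type change was -5.87 ± 1.36 (adjusted p = 0.0617).

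The call of Cxcr4 changed with the fit. In wild-type cells it was called by DESeq2 (-5.90 ± 1.22), with no filter (-5.91 ± 0.42), in a fit to the wild-type libraries only (-5.88 ± 0.86), with the block within genotype (-5.78 ± 0.95) and without the first or the second LPS-treated Socs1 knockout library (-5.87 each). In Ing4 knockout cells the call was lost without any one wild-type library (-5.57 to -5.55), without the first or second untreated Ing4 knockout library (-6.29 and -3.94) and without the first or second treated one (-4.83 and -6.93). In the authors' deposited table of genes that differ between LPS-treated and untreated wild-type cells, Cxcr4 is listed with a log2 change of -1.90 (adjusted p = 0.0144), beside Cxcl2 at 6.99, Cxcl10 at 6.73 and Cxcl16 at 1.24. That column is on another scale than the fits here and is not the log2 ratio of the mean values in the same table, which is -5.90 for Cxcr4, 9.67 for Cxcl2, 9.30 for Cxcl10 and 1.31 for Cxcl16. The RefSeq promoter window of Cxcr4 held no match to NF-kB, ISRE or GAS.

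Per kilobase of exon, the scale on which genes can be ranked, Cxcl16 led in all untreated groups with a mean level of 72.5 CPM per kilobase in Ing4 knockout, 51.1 in Socs1 knockout and 32.1 in wild-type cells. Cxcr4 came next at 42.0, 7.74 and 8.64 CPM per kilobase. After LPS the order was Cxcl2, Cxcl10, Cxcl16 and Cxcl11 in each genotype. In wild-type cells these levels were 2090, 849, 79.5 and 25.8 CPM per kilobase after LPS. Cxcl2 exceeded Cxcl10 per kilobase in all 6 treated libraries, by ratios of 1.73 to 3.91, which come from single libraries and carry no test.

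The 7 ligand genes held 0.159% to 0.655% of all counts in LPS-treated libraries and 0.0113% to 0.0277% in untreated ones. Cxcl2 and Cxcl10 together made 94.0% and 84.3% of the ligand counts in LPS-treated Ing4 knockout libraries, 78.3% and 93.7% in Socs1 knockout libraries and 95.4% and 94.4% in wild-type libraries. In untreated libraries Cxcl16 made 97.7% and 99.0%, 96.1% and 96%, and 92.7% and 91.0% in the same genotypes. The ligand counts thus came mostly from Cxcl16 before LPS and mostly from Cxcl2 and Cxcl10 after it. The Wilson 95% interval of each share was at most 1.16 percentage points either side, for counting error only.

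**Figure D3:**
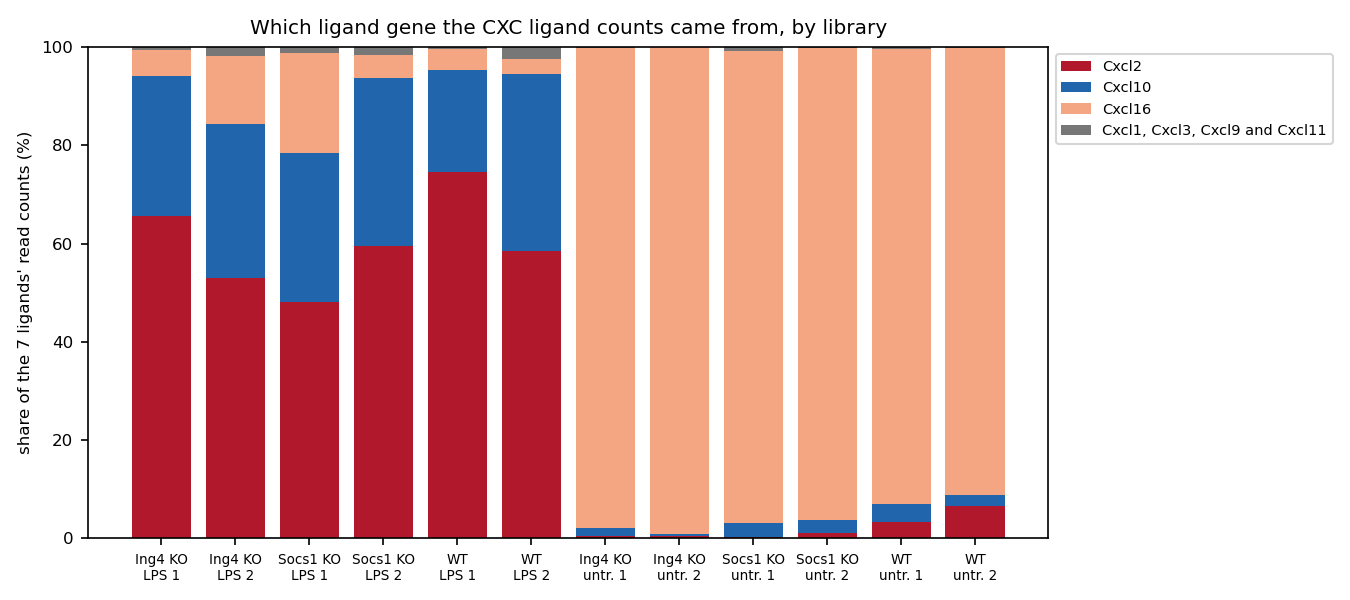
Share of the counts of the 7 CXC ligand genes that each gene took, as stacked bars from 0 to 100% for each library. Cxcl16 fills 91.0% to 99.0% of the untreated bars, and Cxcl2 with Cxcl10 fills 78.3% to 95.4% of the LPS-treated bars.

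The outlying library had lower levels than the other LPS-treated Socs1 knockout library for 6 ligand genes. Its CPM was 0.207 times that of the other for Cxcl2, 0.227 for Cxcl10, 0.184 for Cxcl11 and 0.181 for Cxcl3. For Cxcl9 and Cxcl1, which rested on a few counts, the ratio was 0.161 and 0.0483. Cxcl16 differed little, at 1.11 times, and Cxcr4 was 3.38 times as high. Its Cxcl2 level of 758 CPM was still above the highest untreated library, at 7.15 CPM. With 1 such library its part in these levels was not tested beyond the values with and without it.

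No CXC gene was called in a knockout over wild type. After LPS 0 of 7 genes were called in Ing4 knockout over wild-type cells (background 0.102%) and 0 of 7 in Socs1 knockout over wild-type cells (0.0626%). Untreated, where Cxcl1 and Cxcl3 have no counts and 5 genes have a value, 0 of 5 were called in the Ing4 knockout (0.141%) and 0 of 5 in the Socs1 knockout (0.047%). At an unadjusted p under 0.05 edgeR counted 2, 0, 2 and 2 genes in these comparisons, beside 7.09%, 10.6%, 5.25% and 5.15% of all tested genes. DESeq2 called 1, 0, 1 and 0 of the CXC genes. Over all genes it called 139 of 13546, 230 of 13113, 132 of 15280 and 90 of 13980. The same untreated and treated wild-type libraries serve both knockouts, so the comparisons are not independent.

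The smallest adjusted p was that of Cxcl16 in Ing4 knockout cells. In untreated cells, at 186 and 252 CPM in Ing4 knockout cells against 96.3 and 97.4 CPM in wild-type cells, the libraries did not overlap. The log2 difference was 1.18 ± 0.24 (adjusted p = 0.161, with 0.00047 to 0.974 over the alternatives), and DESeq2 and a fit to those 4 libraries called it. The authors' deposited table also lists it, with a log2 difference of 1.12 on its own scale and an adjusted p of 0.00137. After LPS the log2 difference was 0.96 ± 0.24 (adjusted p = 0.312, with 0.0118 to 1 over the alternatives), also called by DESeq2. Zmynd15, its overlapping neighbour, differed by a log2 of 1.28 ± 0.29 untreated and 1.04 ± 0.29 after LPS, neither called. In Socs1 knockout cells Cxcl16 differed from wild type by 0.36 ± 0.23 after LPS, or 0.28 ± 0.28 without the outlying library, and by 0.67 ± 0.24 untreated.

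The other genes gave wider errors. Untreated Cxcl2 stood at 0.785 and 1.20 CPM in Ing4 knockout and 0.564 and 1.54 in Socs1 knockout cells, against 3.51 and 7.15 CPM in wild-type cells, with no overlap. The log2 differences were -2.42 ± 0.86 (adjusted p = 0.724) and -2.35 ± 0.86 (adjusted p = 0.793), and a fit to the 4 untreated Ing4 knockout and wild-type libraries called the Ing4 knockout difference. After LPS Cxcl2 differed by -0.32 ± 0.72 in Ing4 knockout and -0.97 ± 0.73 in Socs1 knockout cells, and by -0.24 ± 0.60 in Socs1 knockout cells without the outlying library. In the Ing4 knockout Cxcl10 differed by -0.20 ± 0.70 after LPS and -0.40 ± 0.78 untreated, and Cxcl11 by -0.81 ± 0.98 and -0.56 ± 1.97. In the Socs1 knockout Cxcl10 differed by -0.57 ± 0.70 and 0.51 ± 0.76, and Cxcl11 by -0.80 ± 0.97 and 1.81 ± 1.53. Without the outlying library the Socs1 knockout differences after LPS were 0.14 for Cxcl10 and -0.04 for Cxcl11. After LPS the libraries of each knockout overlapped the wild-type ones for Cxcl10 and Cxcl11.

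Cxcl1 after LPS had 51 counts over both Ing4 knockout libraries against 6 over both wild-type libraries, a CPM ratio of 8.33 (exact 95% interval 3.58 to 23.8, counting error only). The fitted log2 difference was 3.04 ± 1.20 (adjusted p = 0.689), and the gene was not called although the libraries did not overlap. In the Socs1 knockout the ratio for Cxcl1 was 2.41 (0.898 to 7.54) and the fitted difference 1.39 ± 1.27, or 2.39 without the outlying library. Cxcr4 was at 24.9 and 127 CPM in untreated Ing4 knockout cells against 24.7 and 6.57 CPM in wild-type cells, a log2 difference of 2.28 ± 1.01 (adjusted p = 0.960). After LPS Cxcr4 differed by 2.60 ± 1.41 in Ing4 knockout and 2.51 ± 1.41 in Socs1 knockout cells, and by 1.35 ± 2.08 in Socs1 knockout cells without the outlying library. Cxcl3 after LPS differed by 0.13 ± 0.86 in Ing4 knockout and -0.99 ± 0.92 in Socs1 knockout cells, and by -0.18 ± 0.87 in Socs1 knockout cells without the outlying library.

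**Figure D4:**
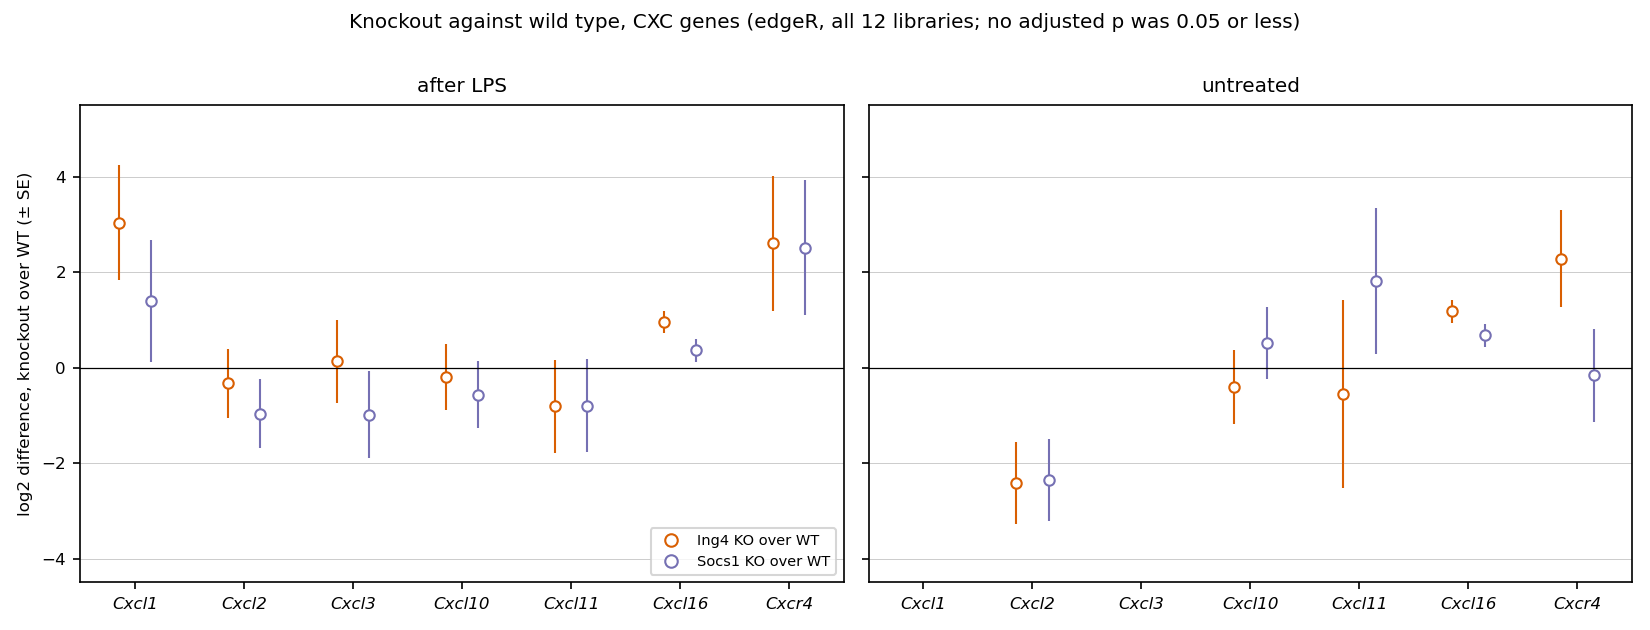
Log2 difference of knockout over wild type (edgeR, all 12 libraries, ± SE) for the tested CXC genes after LPS on the left and untreated on the right; Cxcl1 and Cxcl3 have no untreated counts. Cxcl16 has the narrowest errors, at 1.18 ± 0.24 in untreated Ing4 knockout cells, and none of the genes shown was called.

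The LPS responses themselves were compared between genotypes. Only the 5 genes with untreated counts have a value. Of these 0 were called in Ing4 knockout over wild-type cells (background 0%) and 0 in Socs1 knockout over wild-type cells (background 0%). With all libraries and no block 0 and 0 had an unadjusted p under 0.05 in edgeR, and DESeq2 called none. Cxcl2 had an unadjusted p under 0.05 in the Ing4 knockout with the block within genotype and without the outlying library, and in the Socs1 knockout without that library, and was not called in these fits. The response of Cxcl2 differed by a log2 of 2.10 ± 1.11 in Ing4 knockout and 1.38 ± 1.11 in Socs1 knockout cells, and by 2.12 ± 0.84 in Socs1 knockout cells without the outlying library. That of Cxcl10 differed by 0.20 ± 1.04 in Ing4 knockout and -1.08 ± 1.03 in Socs1 knockout cells, and by -0.37 ± 0.81 in Socs1 knockout cells without the outlying library. That of Cxcl11 differed by -2.61 ± 1.81 in Socs1 knockout cells, and by -1.86 ± 1.80 without the outlying library. For Cxcl16 the differences were -0.22 ± 0.33 in Ing4 knockout and -0.31 ± 0.33 in Socs1 knockout cells, or -0.39 ± 0.37 without the outlying library. For Cxcr4 they were 0.32 ± 1.65 in Ing4 knockout and 2.67 ± 1.72 in Socs1 knockout cells, and 1.51 ± 2.28 in Socs1 knockout cells without the outlying library.

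Genes linked to the LPS signal or to these ligands, inhibitors among them, were counted from lists of pathway members. Of 10 NF-kB subunits and inhibitors 9 rose in Ing4 knockout, 7 in Socs1 knockout and 8 in wild-type cells, and 0 fell. Of all tested genes 4.73%, 1.57% and 1.89% were called higher in these genotypes. The list's median log2 change was 2.79, 2.28 and 2.51. Without the outlying library 9 rose in each genotype, where 1481, 1197 and 1033 of 13262 tested genes were called higher. In wild-type cells Nfkbiz, an inducible nuclear cofactor, rose by a log2 of 6.06 ± 0.40 (adjusted p = 0.000287). On the same scale Rel rose by 2.04 ± 0.18, Nfkbib by 2.14 ± 0.19 and Nfkb2 by 2.55 ± 0.26 (adjusted p = 0.000962, 0.000962 and 0.00189). Of 15 genes of interferon signalling 3 rose in Ing4 knockout, 1 in Socs1 knockout and 1 in wild-type cells, with medians of 0.95, 0.65 and 0.89. The shares of all genes called higher were again 4.73%, 1.57% and 1.89%. The gene that rose in Socs1 knockout and in wild-type cells was Ifnb1, interferon beta, with 145 and 403 counts after LPS against 0 and 1 untreated in Socs1 knockout cells and 329 and 537 against 1 and 0 in wild-type cells. Ifnb1 could not pass the filter on low counts through those untreated libraries, so these counts of 1 are descriptions. Without the outlying library 8, 7 and 7 of the 15 rose and 1 fell in each genotype. Of all tested genes 20.4%, 15.8% and 14.5% were then called in either direction.

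Of 8 tested factors that act on chemokine mRNA, Zfp36 and Zc3h12a, which promote decay of cytokine mRNA, rose in all 3 genotypes. In wild-type cells their log2 changes were 3.68 ± 0.33 (adjusted p = 0.000962) and 5.18 ± 0.28 (adjusted p = 0.000193). Zfp36l2, of the same family, fell in Ing4 knockout cells (-2.34 ± 0.57, adjusted p = 0.0452), and its log2 change was -1.95 ± 0.57 in Socs1 knockout and -1.88 ± 0.56 in wild-type cells, not called. The 2 called higher stood beside 4.73%, 1.57% and 1.89% of all tested genes in Ing4 knockout, Socs1 knockout and wild-type cells. The 1 called lower stood beside 3.29% in Ing4 knockout cells. Without the outlying library 4, 4 and 2 of the 8 were called higher and 1 lower in each genotype. Of all tested genes 20.4%, 15.8% and 14.5% were then called in either direction. Of 10 genes of Cxcr4 signalling and turnover edgeR called none in Socs1 knockout or wild-type cells, where 2 and 3 had an unadjusted p under 0.05, a share near the 17% and 22.6% of all genes. In Ing4 knockout cells edgeR called 1 higher and 1 lower, beside 4.73% and 3.29% of all tested genes. There 5 of the 10 had an unadjusted p under 0.05, beside 28.2% of all genes. Rgs16, which dampens G protein signals, rose in these cells by a log2 of 6.73 ± 1.5 (adjusted p = 0.0361). Arrb1, a beta-arrestin, fell by 2.02 ± 0.49 (adjusted p = 0.0428). Of 6 proteases that cut chemokines 4 were tested and edgeR called none, with 2, 3 and 2 at an unadjusted p under 0.05 in Ing4 knockout, Socs1 knockout and wild-type cells, where 28.2%, 17% and 22.6% of all genes were. With the block within genotype 3, 0 and 2 of them were called, beside 27.2%, 6.02% and 14.2% of all genes.

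Many of the remaining CXC genes had few or no counts in these libraries. Of 8 other ligand genes Cxcl14 and Pf4 were tested, and Cxcl5, Cxcl12, Cxcl13 and Cxcl15 had 0 counts throughout. The summed level of the 8 was 3.65 to 6.27 CPM in LPS-treated Ing4 knockout, 3.60 to 57.4 in Socs1 knockout and 7.91 to 27.1 in wild-type cells. Untreated it was 5.07 to 7.72, 8.31 to 64.4 and 6.75 to 24.5 CPM. These sums thus differed widely within the Socs1 knockout and wild-type pairs. The receptor of Cxcl16, Cxcr6, reached at most 7 counts and that of Cxcl2, Cxcr2, at most 3. Cxcr3, which binds Cxcl9, Cxcl10 and Cxcl11, was at 2.04 and 2.38 CPM in LPS-treated wild-type cells and 3.29 and 3.89 CPM in untreated ones, and was not called. Pf4, a ligand stored in platelets, was the exception for the knockouts. It stood at 0.143 and 0.277 CPM in LPS-treated Ing4 knockout, 0.0815 and 0.337 in Socs1 knockout and 4.51 and 4.26 in wild-type cells. Untreated it stood at 0.218 and 0.184, 0.0867 and 0.0996, and 2.94 and 3.85 CPM in the same genotypes. Pf4 fell in both knockouts. The log2 difference of the Ing4 knockout from wild type was -4.37 ± 0.58 after LPS and -4.04 ± 0.57 untreated (adjusted p = 0.0365 and 0.0447). That of the Socs1 knockout was -4.43 ± 0.58 and -5.11 ± 0.63 (adjusted p = 0.05 and 0.0397). These calls sat near the threshold. Of 18 alternatives the Ing4 knockout lost its call in 10 after LPS and 10 untreated, and the Socs1 knockout in 12 and 11. All these were fits without 1 library, apart from 1 in each treatment of the Socs1 knockout, the fit to the compared groups only. Over the alternatives the adjusted p was 8.52e-09 to 0.271, 8.58e-08 to 0.506, 3.82e-09 to 0.696 and 3.41e-10 to 0.417 in the same order. The calls were lost without any one untreated or treated wild-type library. They were lost too without any one Ing4 knockout or untreated Socs1 knockout library. The log2 difference stayed between -4.89 and -3.96, -4.21 and -3.83, -5.65 and -3.67, and -5.29 and -4.89. Without the outlying library the Socs1 knockout difference after LPS was -3.67 ± 0.57 and not called, while the other 3 were.

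Genes with the most similar pattern over the 12 libraries were found among those with a mean of at least 2 CPM, by the root mean square difference of log2 CPM after centring each gene. For Cxcl2 they were Csf3 (0.97), Lif (1.01) and Il1a (1.12), where the spread of Cxcl2 itself was 5.42. For Cxcl10 they were Ptgs2 (0.89), Acod1 (0.99) and Cish (1.06), and for Cxcl11 Cd40 (0.91), Ifnb1 (0.95) and Socs3 (0.95). For Cxcl16 they were Zmynd15 (0.25), Idi1 (0.28) and Zfp263 (0.31), where Zmynd15 is the gene that shares its bases. For Cxcr4 they included S1pr1 (1.12) and Tmem86a (1.13). For the sparse Cxcl1 they were Lztfl1 (0.61), Fam241a (0.62) and Tet2 (0.64), and for Cxcl3 Slc4a7 (0.33), Osgin2 (0.35) and Nfkb1 (0.36). The points share the LPS treatment in 6 of 12 libraries, so such likeness is a description.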

How the data were processed

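Single reads of poly(A) RNA from 12 RAW 264.7 libraries were counted per gene by the authors, who deposited raw counts in 1 table, per the file headers. The submitters' processing notes name FastQC, HISAT, StringTie, HTSeq and DESeq2 without versions, and the human build GRCh38. Every gene carries a mouse identifier; positions in the deposited comparison tables matched GRCm38, the build used here, for 1028 of 1084 genes. The treatment label names HEK293T while all samples are labelled RAW 264.7; 0 columns were unmatched. The authors' deposited tables of changed genes hold log2 changes, an adjusted p-value and normalized mean signal, per the file headers.

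Genes were kept by filterByExpr (minimum count 10, total 15), scaled by TMM and fitted with edgeR 4.0.16 in R 4.3.3 (robust quasi-likelihood, 6 group means, Benjamini-Hochberg over 12771 genes); all adjusted p-values come from this fit unless another tool is named. CPM is computed here. Alternatives were RLE and upper-quartile scaling, no filter, DESeq2 1.42.0, a fit to the compared groups only, 2 kinds of replicate block and leaving out each library. The procedure was tested on simulated data. Deviations of same-numbered libraries correlated at 0.447 to 0.601 between the treatments of a genotype and at -0.129 to 0.156 between genotypes. Numbers were therefore taken to pair libraries within a genotype, but only in the alternative with the block within genotype. The reported fit and its errors leave this pairing out, and the labels state no pairing. Replicate libraries differed by more than counting noise, and 3 counts equal 0.122 to 0.169 CPM.

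Members and lists were chosen with earlier results of these data known. Named genes are all 8 members, up to 4 called genes of each list with the smallest p after LPS in wild type, those called in a knockout comparison, the targeted genes and the 3 genes most like each member; other genes were named after their values were seen. Some genes these rules pick are not reported here. Promoter strings were searched in RefSeq windows, which matched 6 of 8 members.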

Additional observations from a re-analysis of the deposited data

How the results depend on the processing

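With 2 libraries a group, many calls sit near the threshold. Over alternatives that kept all libraries, 305 of 350 values of single genes kept their direction and side of the threshold, 40 gained a call, 3 lost one and 2 reversed; with a library left out the counts were 584, 13, 37 and 26 of 660. Without the filter on low counts, 8 genes were called after LPS in Ing4 knockout cells and 7 in Socs1 knockout cells (5 and 2 otherwise). Of all 23947 genes 2588 and 1462 were then called. In Ing4 knockout over wild type 3 and 3 were called after LPS and untreated, beside 539 and 516 of all genes. In Socs1 knockout over wild type it was 2 and 2, beside 919 and 429. For the difference of LPS responses it was 1 and 2 in the Ing4 and Socs1 knockouts, beside 26 and 64. In the reported fit the count of the 8 genes was 0 in these comparisons with wild type. DESeq2 called 4 CXC genes after LPS in Socs1 knockout cells, beside 830 of 12246 genes. In Ing4 knockout over wild type it called 1 in each treatment, beside 139 of 13546 genes after LPS and 132 of 15280 untreated. A fit to the compared groups only called 0 after LPS in Socs1 knockout cells, where it called 0 of 11936 genes. It called 2 in untreated Ing4 knockout over wild type, beside 177 of 11992 genes. The cause was not tested.

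With 1 library left out the number called after LPS ranged from 2 to 7 in Ing4 knockout, 1 to 5 in Socs1 knockout and 0 to 6 in wild-type cells, and stayed 0 in all other comparisons. The difference of LPS response of Cxcl11 in the Ing4 knockout was -0.25 and became 0.14 with a replicate block over all libraries and 0.072 with the replicate block within genotype. The block over all libraries, whose numbers are shared only by name between genotypes, called 5 genes higher and 1 lower after LPS in Ing4 knockout, 2 in Socs1 knockout and 4 in wild-type cells, and it changed no other call than that of Cxcl1 in Ing4 knockout cells. With 1 library left out, log2 values that changed sign had these ranges. In Ing4 knockout over wild type after LPS they were -0.43 to 1.03 for Cxcl3, -0.66 to 0.44 for Cxcl10, -1.64 to 1.31 for Cxcl11 and -1.08 to 0.17 for Cxcl2, and untreated -1.22 to 0.11 for Cxcl10 and -1.47 to 0.38 for Cxcl11. In Socs1 knockout over wild type after LPS they were -2.0 to 0.14 for Cxcl10, -2.49 to 1.33 for Cxcl11 and -1.80 to 2.39 for Cxcl1, and untreated -1.14 to 1.09 for Cxcr4. For the difference of LPS responses they were -0.31 to 1.02 for Cxcl10, -1.06 to 1.93 for Cxcr4, -1.20 to 1.88 for Cxcl11 and -0.47 to 0.0087 for Cxcl16 in the Ing4 knockout, and -0.16 to 2.26 for Cxcl2 in the Socs1 knockout. None of these was called with all libraries.

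Upper-quartile scaling moved the median log2 change of all genes with LPS to -0.13, -0.13 and -0.11 in Ing4 knockout, Socs1 knockout and wild-type cells, and the counts of called CXC genes stayed at 5, 2 and 4. Over all genes and all alternatives the number called after LPS ranged from 77 to 3471 in Ing4 knockout (1024 in the reported fit), 0 to 2090 in Socs1 knockout (253) and 28 to 2197 in wild-type cells (369). The block within genotype could not be fitted to knockouts over wild type, and genes with 0 counts in both groups have no value.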
